A study of Mus musculus with 12 samples.

Results

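The collagen genes of the mouse hippocampus were followed over a circadian cycle and from mouse to mouse. A collagen gene was taken as any array probe whose gene name was Col, a number, a and a number. The array held 63 such probes for 41 genes, and 33 of the 41 genes had a probe well above the local background on all 3 arrays of at least 1 circadian time. The brightest probe stood for each gene. All 12 animals were wild-type adult male mice kept in continuous darkness, and no other treatment is given in the labels. CT18 mice (mice 14, 15 and 16) had spent 30 h in darkness, CT0 mice (1, 2 and 3) 36 h, CT6 mice (5, 6 and 7) 42 h and CT12 mice (10, 11 and 12) 48 h, where CT0 opens the subjective day and CT12 the subjective night. The series set out to find genes under circadian regulation in the hippocampus, using a separate Agilent array for every animal, read in 1 colour. Levels are log2 intensity relative to the 75th percentile of the array, so that a difference of 1 is a doubling.

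Collagens are secreted proteins of the extracellular matrix that wind around each other as triple helices. The fibrillar types I and III are made mainly by fibroblasts, which in and around the brain lie in the meninges, around larger vessels and in the stroma of the choroid plexus. Type IV collagen forms the network of basement membranes around every brain capillary, type VI forms beaded microfilaments, and several of the fibril-associated and membrane-spanning collagens are made by neurons. A bulk hippocampus sample therefore carries collagen RNA from tissue at its borders as well as from its own cells.

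With 3 arrays per time, precision is limited by that number. Between 59.3% and 77.1% of the 59305 non-control spots lay well above background on the 12 arrays. The choroid plexus epithelium score, the mean deviation from the gene mean over 13 of 15 listed markers, was 2.0 to 3.83 in 5 libraries (CT0 mouse 1, CT6 mouse 7, CT12 mice 10 and 11, CT18 mouse 14) and -2.25 to -1.84 in the other 7. Its marker Ttr, the thyroid hormone carrier secreted by that epithelium, was at 6.85 to 8.20 in those 5 and at -2.03 to 0.35 in the other 7, and Folr1, a folate receptor, separated the same libraries. The library labelled CT12 mouse 11 went against its tissue label: the score over 10 markers of forebrain excitatory neurons was -4.65 there and -0.18 to 0.61 in the others, with Nrgn at 0.52 against at least 4.14. Its score over 9 of 12 cerebellum markers was 4.43 against -0.70 to 0.17, with Pvalb at 6.81 and Itpr1 at 6.77. A thalamus score of 7 markers was highest in mice 10 (1.28) and 11 (0.69) of CT12, where Slc17a6 was at 2.19 and 2.5 and Lef1 at 2.10 and 0.63. The fibroblast score over 20 markers, which include no collagen, ran from -0.20 to 0.97 at CT0, from -0.19 to 0.40 at CT6, from -0.66 to 0.46 at CT12 and from -1.16 to 0.31 at CT18. The mural score (14 markers, among them Vtn and Tagln) ran from -0.25 to 0.24, and the endothelial score (15 markers, among them Ly6c1 and Cldn5) from -0.15 to 0.17. The ependymal score (8 markers, among them Rarres2 and Fam183b) ran from -0.57 to 1.04. In bulk tissue, fewer cells of a type and less RNA per cell cannot be told apart.

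Of the 41 collagen genes, 31 were well above background on all 3 arrays of all 4 circadian times. Col24a1 missed this at CT0 and Col6a4 at CT12. The 8 genes left out (Col4a3, Col6a6, Col8a1, Col10a1, Col13a1, Col15a1, Col17a1 and Col28a1) were well above background on 0 to 7 arrays each. All 11 fibrillar collagens passed, as did all 9 fibril-associated ones, 5 of 6 basement membrane type IV chains and 3 of 4 type VI chains. Of the remaining classes, 1 of 3 short-chain network collagens passed (Col8a2), 1 of 1 anchoring fibril collagen (Col7a1), 2 of 4 membrane-spanning collagens (Col23a1, Col25a1) and 1 of 2 multiplexins (Col18a1).

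**Figure D1:**
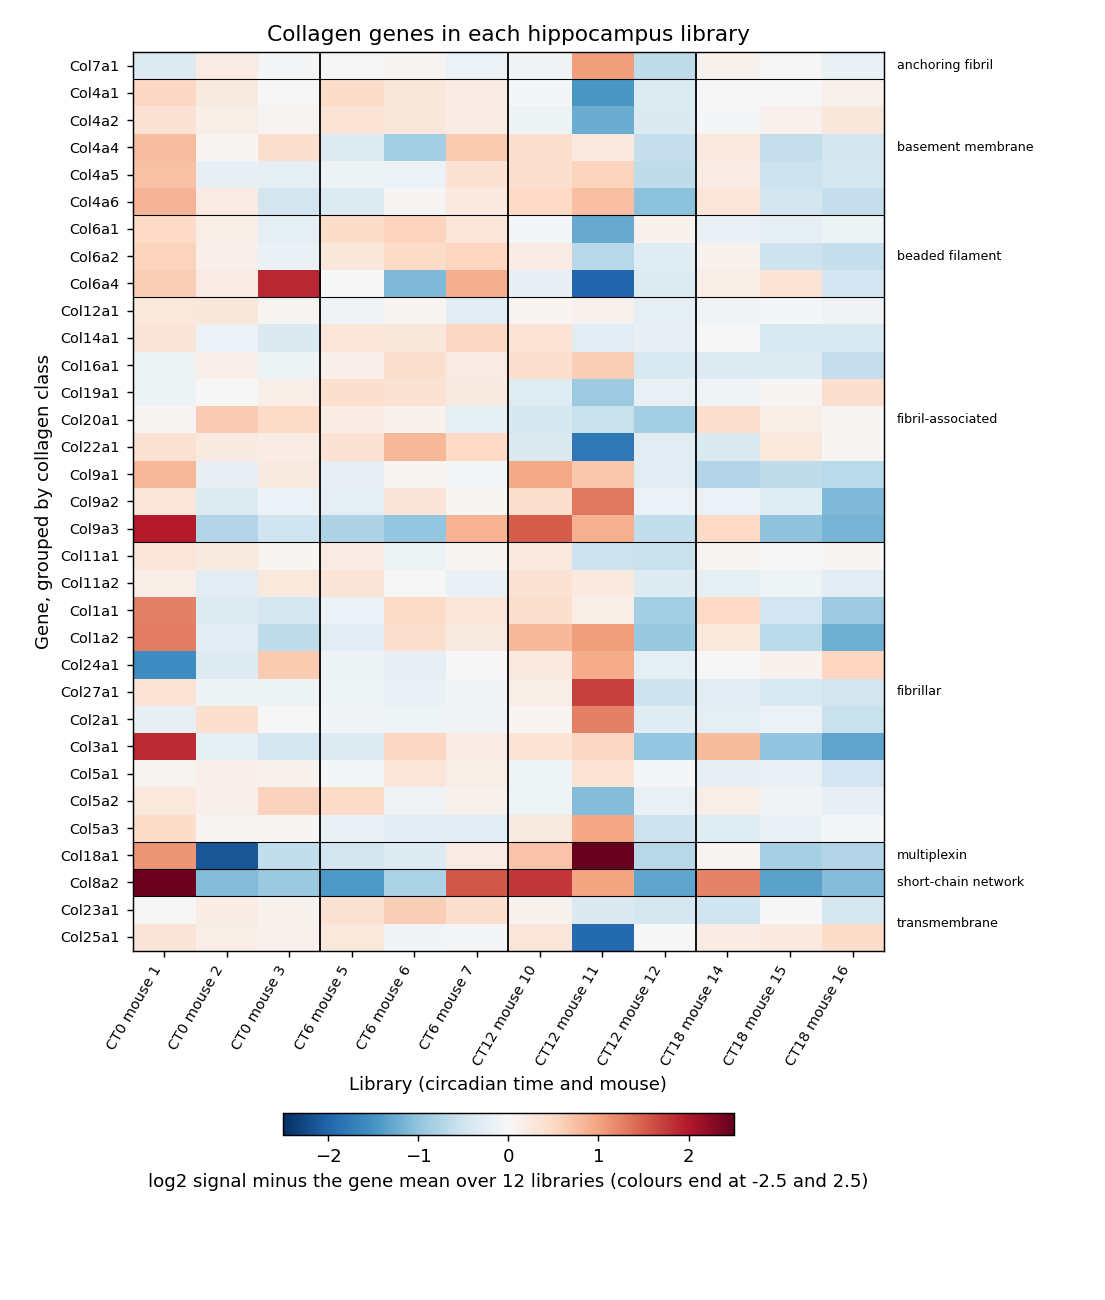
Level of the 33 collagen genes (vertical axis, grouped by class) in each of the 12 libraries (horizontal axis, ordered by circadian time), as log2 signal minus the gene's mean over the libraries. Red is above and blue below that mean. Col8a2 and Col9a3 are red in CT0 mouse 1, CT6 mouse 7, CT12 mice 10 and 11 and CT18 mouse 14, and the column of CT12 mouse 11 holds dark red cells (Col18a1, Col27a1) as well as dark blue ones (Col6a4, Col25a1).

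No collagen gene passed the test among the 4 circadian times. The moderated F test of limma with Benjamini-Hochberg adjustment over 24080 genes called 0 of 33 collagens, against 40 genes or 0.166% of all. The smallest adjusted p was 0.181, for Col20a1. At an unadjusted p under 0.05 the same test had 10 collagens (30.3%), against 10.6% of all genes. For a rhythm of 24 h, limma called 0 of 33, against 0.0706% of all genes, with a smallest adjusted p of 0.192, and 8 collagens (24.2%) had an unadjusted p under 0.05 against 9.72% of all genes. Without CT12 mouse 11 limma again called 0 in both tests, with 11 and 10 collagens at an unadjusted p under 0.05 (12.3% of all genes in each test). On the same arrays the clock genes Ciart and Nr1d1, whose transcripts cycle in most tissues, passed the limma F test with adjusted p of 0.00949 and 0.0190. The F test sets the differences among the 4 means against the spread between the mice of each time. In the rhythm test the residual also holds the departure of the 4 means from a 24 h cosine.

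In the 6 comparisons between pairs of times, limma called 0 of 33 collagens in each. All genes gave 0.0581% for CT12 against CT0, 0.133% for CT18 against CT6, 0% for CT6 against CT0, 0.0208% for CT12 against CT6, 0.411% for CT18 against CT12 and 0% for CT18 against CT0. Unadjusted p under 0.05 counted 8 collagens for CT12 against CT0 (11.7% of all genes), 5 for CT18 against CT6 (8.32%), 1 for CT6 against CT0 (2.45%), 9 for CT12 against CT6 (11.8%), 8 for CT18 against CT12 (16.6%) and 4 for CT18 against CT0 (3.97%). The pairs share libraries, so these counts are not independent of each other. Without CT12 mouse 11 limma still called 0 collagens in each pair, while all genes gave 0.0291% for CT12 against CT0, 1.25% for CT18 against CT6, 0% for CT6 against CT0, 0.0249% for CT12 against CT6, 0.494% for CT18 against CT12 and 0.0208% for CT18 against CT0. At an unadjusted p under 0.05 that fit had 6 collagens for CT12 against CT0 (8.38% of all genes) and 6 for CT12 against CT6 (7.92%). It had 4 for CT18 against CT12 (13.8%), 7 for CT18 against CT6 (13.8%), 3 for CT6 against CT0 (5.01%) and 4 for CT18 against CT0 (7.05%).

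The separation of the mice was one-sided in several pairs. All 3 CT12 mice lay below all 3 CT0 mice for 7 collagens and above them for 0, against 7.77% and 5.17% of all genes. CT12 lay below CT6 for 9 and above for 0, against 9.90% and 6.11%. CT6 lay below CT0 for 1 and above for 3, against 5.07% and 5.95%. CT18 lay below CT12 for 3 and above for 4, against 7.69% and 10.7%.

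Most collagens had a lower mean at CT18 than at each other time, in values that did not pass per gene. Against CT12, 23 of the 33 were lower and 10 higher, with a median difference of -0.22 against 0.00 over all genes. Some collagens, among them Col4a1, Col4a2 and Col20a1, had their lowest mean at CT12. At CT18, 28 of the 33 were below their CT0 mean, with a median difference of -0.37 against 0.00 over all genes, of which 51.25% were lower. Within slides 1, 2 and 3, each of which carries 1 mouse per time, the collagen median was -0.47, -0.24 and -0.34. Leaving out CT0 mouse 1 gave 25 of 33 and a median of -0.19, and leaving out the 5 libraries with a choroid plexus score above 0 gave 28 of 33 and -0.29. Against CT6, 27 of 33 were lower at CT18, with a median of -0.26 against -0.02 over all genes, and in 11 (33.3%) every CT18 mouse lay below every CT6 mouse, against 11.6% of all genes. None of the 33 lay above in all CT18 mice, against 11.3% of all genes. For CT18 against CT0 the counts were 6 below (18.2%, against 5.11%) and 0 above (against 6.35%). Centring the arrays on their median moved the median of all genes by over 0.1 for CT18 against CT0, to 0.26, and the collagen median was then -0.11, against -0.23 with quantile normalization. For CT18 against CT6 it was -0.16 with median centring. Of the 20 fibroblast markers, 1 was higher at CT18 than at CT0 and 3 were higher than at CT6, with median differences of -0.51 and -0.44. Other marker lists also had most means lower at CT18 than at CT0. There, 0 of 13 choroid plexus markers were higher (median -0.51), 0 of 8 ependymal (-0.23), 3 of 14 mural (-0.13) and 3 of 15 endothelial (-0.08). Against CT6 the higher markers were 7 of 13 choroid plexus (median 0.09), 8 of 8 ependymal (0.32), 5 of 14 mural (-0.18) and 7 of 15 endothelial (-0.03). The part of these cell types in the collagen differences was not tested. CT18 mouse 16 had the lowest fibroblast score of all 12 libraries (-1.16) and CT0 mouse 1 the highest (0.97). Leaving out CT18 mouse 16 gave 29 of 33 and a median of -0.28 against CT0, and 24 of 33 and -0.20 against CT6.

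For types I and III collagen, the means of the 4 times differed by no more than the SD among mice of 1 time. Col1a1 and Col1a2 encode the chains of type I collagen, the main fibre of skin, bone and meninges, and Col3a1 encodes type III, which is laid down beside it. Their probes lie at chr11:94813115-94813174, chr6:4490619-4490678 and chr1:45405589-45405648 (mm9). Col1a1 was at 0.21, -1.37 and -1.47 in CT0 mice 1, 2 and 3, at -1.19, -0.56 and -0.73 in CT6 mice 5, 6 and 7, at -0.62, -0.87 and -1.88 in CT12 mice 10, 11 and 12, and at -0.55, -1.53 and -1.95 in CT18 mice 14, 15 and 16. Col1a2 was at 3.18, 1.66 and 1.28 at CT0, at 1.65, 2.31 and 2.13 at CT6, at 2.71, 2.96 and 0.96 at CT12, and at 2.17, 1.24 and 0.69 at CT18, in the same order of mice. Col3a1 was at -0.80, -2.89 and -3.07 at CT0, at -2.99, -2.15 and -2.47 at CT6, at -2.32, -2.14 and -3.62 at CT12, and at -1.87, -3.65 and -3.98 at CT18. All 3 genes were highest in CT0 mouse 1 and lowest in CT18 mouse 16, and the 4 times overlapped. The array of CT0 mouse 1 had a local background of 100, against 25 to 37 on the others. Its file header alone marked the extraction for evaluation.

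The means of Col1a2 were 2.04 ± 1.01 at CT0, 2.03 ± 0.34 at CT6, 2.21 ± 1.09 at CT12 and 1.37 ± 0.75 at CT18 (SD, n = 3 each). The range of those means was 0.85 and the SD within a time 0.85, and the adjusted p of the limma F test was 0.871. For Col1a1 and Col3a1 the adjusted p was 0.948 and 0.907. The highest and the lowest library differed 4.47-fold for Col1a1, 5.62-fold for Col1a2 and 9.07-fold for Col3a1.

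The spread of these 3 genes ran with the fibroblast score. In a limma fit with circadian time and the score, an increase of 1 in the score went with an increase of 1.12 ± 0.09 in Col1a1, 1.34 ± 0.13 in Col1a2 and 1.53 ± 0.15 in Col3a1 (slope ± SE, 12 libraries; adjusted p 0.00166, 0.00348 and 0.00295). They were the only 3 of 33 collagens called (9.09%), against 0.565% of all genes. At an unadjusted p under 0.05 there were 14 collagens (42.4%) against 9.55% of all genes, and 24 of the 33 slopes were positive. With the score in the fit, the SD within a time dropped from 0.70 to 0.16 for Col1a1, from 0.85 to 0.24 for Col1a2 and from 0.96 to 0.27 for Col3a1. With the endothelial score in its place the SD was 0.23, 0.15 and 0.31 in the same order, so the drop was not particular to the fibroblast score. It was 0.34, 0.55 and 0.58 with the mural score and 0.37, 0.50 and 0.55 with the choroid plexus score. The score's mean was 0.38, 0.03 and -0.42 on slides 1, 2 and 3. With slide as a block the slopes were 1.07, 1.25 and 1.48 (adjusted p by limma 0.0834, 0.107 and 0.103). That fit called 0 of the 33 collagens and 0.0415% of all genes, with 12 collagens at an unadjusted p under 0.05.

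The fibroblast score also moved with the vessel scores over the 12 libraries, which all come from the same arrays. Pearson's r was 0.88 with the mural score and 0.89 with the endothelial score, and none is given with the choroid plexus score, which falls into separate clusters. In the 5 libraries high in the choroid plexus score the fibroblast score was 0.97, 0.31, 0.46, 0.42 and 0.31. Among the other 7, CT6 mouse 6 was at 0.40 and the rest between -1.16 and -0.17. The 2 scores thus marked largely the same libraries. With the choroid plexus score as a further covariate, the fibroblast slopes of Col1a1, Col1a2 and Col3a1 were 1.0, 1.29 and 1.42. Their adjusted p by limma were 0.427, 0.647 and 0.647, and that fit called 0 collagens and 0% of all genes. It had 5 collagens at an unadjusted p under 0.05. Without the 5 libraries high in the choroid plexus score the slopes of the same genes were 0.83, 0.94 and 0.91, on 7 libraries. All 3 stayed called when any 1 of the 12 libraries was left out. Without CT12 mouse 11 Col6a2 and Col9a2 were called as well, 5 of 33 in all (15.2%) against 0.619% of all genes. Against the endothelial score 5 of 33 collagens were called by limma (15.2% against 0.905% of all genes), namely Col1a1, Col1a2, Col3a1, Col4a5 and Col4a6. In fits without 1 library the call held in 12 of 12 for the first 3, in 10 of 12 for Col4a6 (lost without CT0 mouse 1 or CT12 mouse 12) and in 5 of 12 for Col4a5 (lost also without CT0 mice 2 or 3, CT6 mouse 5, CT12 mouse 10 or CT18 mouse 14). With slide as a block limma called 0 of 33 and 0.0166% of all genes, with 13 collagens at an unadjusted p under 0.05. With the fibroblast score as a further covariate limma called 0 collagens and 0% of all genes, with 8 collagens at an unadjusted p under 0.05. Against the mural score limma called 0 of 33 and 0% of all genes (10 collagens at an unadjusted p under 0.05), and without CT12 mouse 11 it called 2 of 33, Col1a1 and Col1a2, and 0.253% of all genes.

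**Figure D2:**
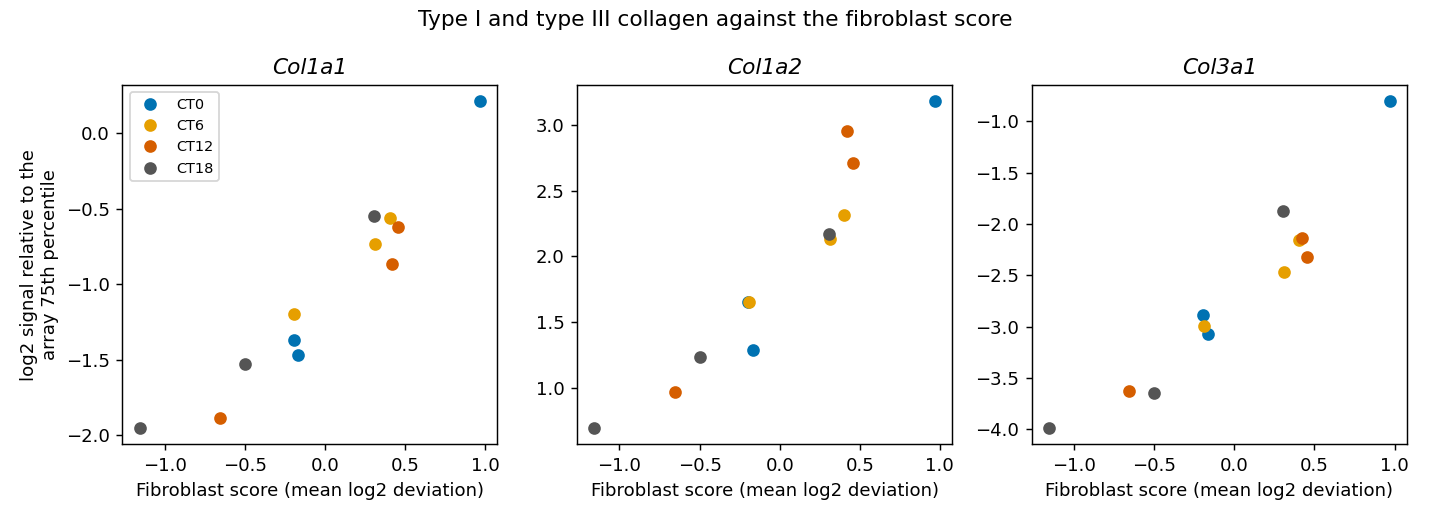
Level of Col1a1, Col1a2 and Col3a1 (vertical axes, log2 signal relative to the array's 75th percentile) against the fibroblast score (horizontal axis, mean log2 deviation over 20 markers) in the 12 libraries, coloured by circadian time. In all 3 panels CT0 mouse 1 is at the upper right, at a score of 0.97, and CT18 mouse 16 at the lower left, at -1.16.

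The genes most like Col1a2 over the 12 libraries were chosen by Pearson's r, with 3 collagens and 3 others named. The collagens were Col4a6 (r = 0.94), Col4a5 (0.93) and Col3a1 (0.92). The others were Aebp1 (0.99), which encodes a collagen-binding secreted protein, Slc22a18 (0.97) and Gpr182 (0.97), a receptor of endothelial cells. Without CT12 mouse 11 these values were 0.91 to 0.99. The promoter of Col1a2 is shown as the start region of a gene that moved with the fibroblast score. The RefSeq window (GRCm38.p6) runs from 250 bases before to 50 after the annotated start, at chr6:4505368-4505667 on the plus strand. Capitals mark CCAAT and GGGCGG on either strand.
Col1a2: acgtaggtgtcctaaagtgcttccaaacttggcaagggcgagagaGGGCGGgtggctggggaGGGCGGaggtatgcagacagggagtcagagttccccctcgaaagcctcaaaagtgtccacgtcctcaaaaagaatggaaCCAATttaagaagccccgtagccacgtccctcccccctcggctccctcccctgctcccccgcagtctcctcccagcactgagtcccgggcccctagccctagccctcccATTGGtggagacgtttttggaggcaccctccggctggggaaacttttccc
CCAAT or its reverse complement was in 37.41% of the 32851 RefSeq promoter windows of this length and in 12 of the 29 windows of 26 matched collagens. GGGCGG on either strand was in 35.66% of all windows and 20 of the 29. The E-box CACGTG, a motif bound by clock proteins, was in 7.15% of all windows and 0 of the 29, which says only that these letters are absent from these windows. The other 7 collagens that passed (Col1a1, Col2a1, Col5a2, Col9a3, Col12a1, Col14a1 and Col22a1) were not matched in the table.

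The slopes of the other fibrillar collagens on the fibroblast score were smaller and were not called. Col2a1, the cartilage fibril, Col5a1, Col5a2 and Col5a3, which regulate fibril diameter, and Col11a1 and Col11a2, minor chains of cartilage-type fibrils, had fibroblast slopes from -0.09 to 0.30. Their SD within a time was 0.17 (Col5a1) to 0.45 (Col2a1). Col27a1 had a slope of 0.51 ± 0.28, and Col24a1 one of -0.37 ± 0.33. None of these slopes was called by limma, with adjusted p of 0.565 and more. Without CT12 mouse 11 the slope of Col27a1 was 0.31 ± 0.09 (unadjusted p by limma 0.00664, adjusted p 0.214). That of Col24a1 was then -0.51 ± 0.30 (adjusted p 0.461), and none of these genes was called. Col5a1 was at -1.41, -1.35 and -1.39 at CT0, at -1.52, -1.18 and -1.30 at CT6, at -1.57, -1.13 and -1.51 at CT12, and at -1.68, -1.65 and -1.94 at CT18. Every CT18 mouse lay below every other mouse for Col5a1. The difference of CT18 from CT6 was -0.42 (95% interval -0.73 to -0.11), with an adjusted p by limma of 0.382.

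Col8a2, Col9a3, Col18a1, Col4a5 and Col4a6 were higher in the 5 libraries with a high choroid plexus score. Of these, Col4a5 and Col4a6 also ran with Col1a2 and the endothelial score, as given above. Col8a2 encodes a short-chain collagen of network sheets, known from the membrane under the corneal endothelium. It was at 0.32 in CT0 mouse 1, -0.58 in CT6 mouse 7, -0.37 and -1.14 in mice 10 and 11 of CT12 and -0.90 in CT18 mouse 14, and between -3.58 and -2.93 in the other 7 libraries. Col9a3, a chain of the fibril-associated type IX, was at -1.08, -2.20, -1.55, -2.19 and -2.57 in the same 5 libraries and between -4.24 and -3.56 in the other 7. The groups of 5 and 7 did not overlap for either gene, and the medians differed 6.26-fold for Col8a2 and 3.13-fold for Col9a3. Their probes lie at chr4:125991441-125991500 and chr2:180356123-180356182 (mm9).

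Col18a1, the basement membrane collagen whose end fragment is endostatin, was at 0.18, -0.73, -0.22, 2.79 and -0.87 in the 5 and from -3.06 to -1.25 in the other 7. Its second probe followed the first with r = 0.93 over the 12 libraries. Col4a5 and Col4a6, type IV chains with neighbouring genes on the X chromosome, were also higher in each of the 5 libraries than in any of the 7. Col4a5 was at -1.65, -2.02, -1.96, -1.84 and -2.18 in the 5 and from -3.02 to -2.51 in the 7. Col4a6 was at -2.01, -2.61, -2.34, -2.10 and -2.55 against -3.87 to -2.64, although its second probe did not follow the first (r = -0.10). These 5 collagens are 15.2% of the 33, against 1.15% of all genes, and 0 collagens were lower in all 5, against 0.839% of all genes. The 5 libraries were set apart by the marker score and are not groups of the study, so no test was made.

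**Figure D3:**
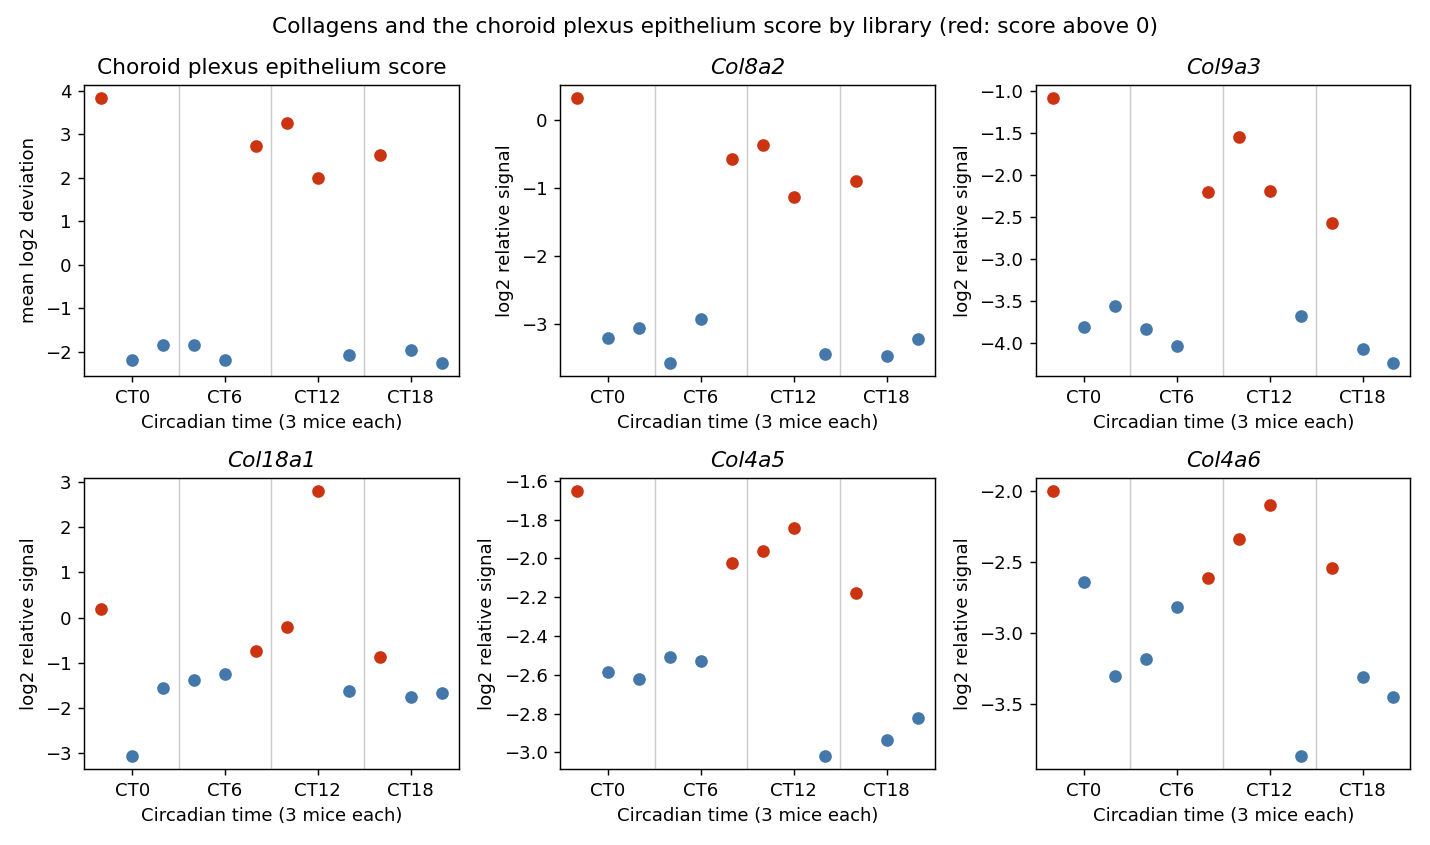
Choroid plexus epithelium score (first panel, mean log2 deviation over 13 markers) and the levels of Col8a2, Col9a3, Col18a1, Col4a5 and Col4a6 (other panels, log2 signal relative to the array's 75th percentile) in the 12 libraries, in order of circadian time and mouse. The 5 libraries with a score above 0 are red and the other 7 blue, and in every panel the red points lie above the blue ones.

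The high libraries were 1 of 3 at CT0, CT6 and CT18 and 2 of 3 at CT12. The means of Col8a2 were -1.99 ± 2.0 at CT0, -2.36 ± 1.58 at CT6, -1.65 ± 1.60 at CT12 and -2.53 ± 1.42 at CT18 (SD, n = 3 each), with an adjusted p of 0.999 by the limma F test. For Col9a3 the adjusted p was 0.860, for Col18a1 0.727, for Col4a5 0.942 and for Col4a6 0.976. With the choroid plexus score in the fit, the SD within a time was 0.26 in place of 1.66 for Col8a2, 0.14 in place of 1.16 for Col9a3 and 0.17 in place of 0.49 for Col4a5. Col4a4, the partner of Col4a5 in the basement membranes of kidney and ear, went from 0.55 to 0.25. Col4a6 went from 0.64 to 0.38, and lower with the fibroblast score (0.32) and the endothelial score (0.24). Col18a1 went from 1.42 to 1.15, against 1.11 and 0.97 with those scores. Apart from Col4a4, these genes were chosen because the clusters of the choroid plexus score set them apart. A drop with that score is therefore no separate result for them. With the choroid plexus score as a covariate, limma still called 0 of 33 collagens among the 4 times, with a smallest adjusted p of 0.216. In that fit 10 collagens had an unadjusted p under 0.05, and the share of all genes at that threshold was not counted.

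**Figure D4:**
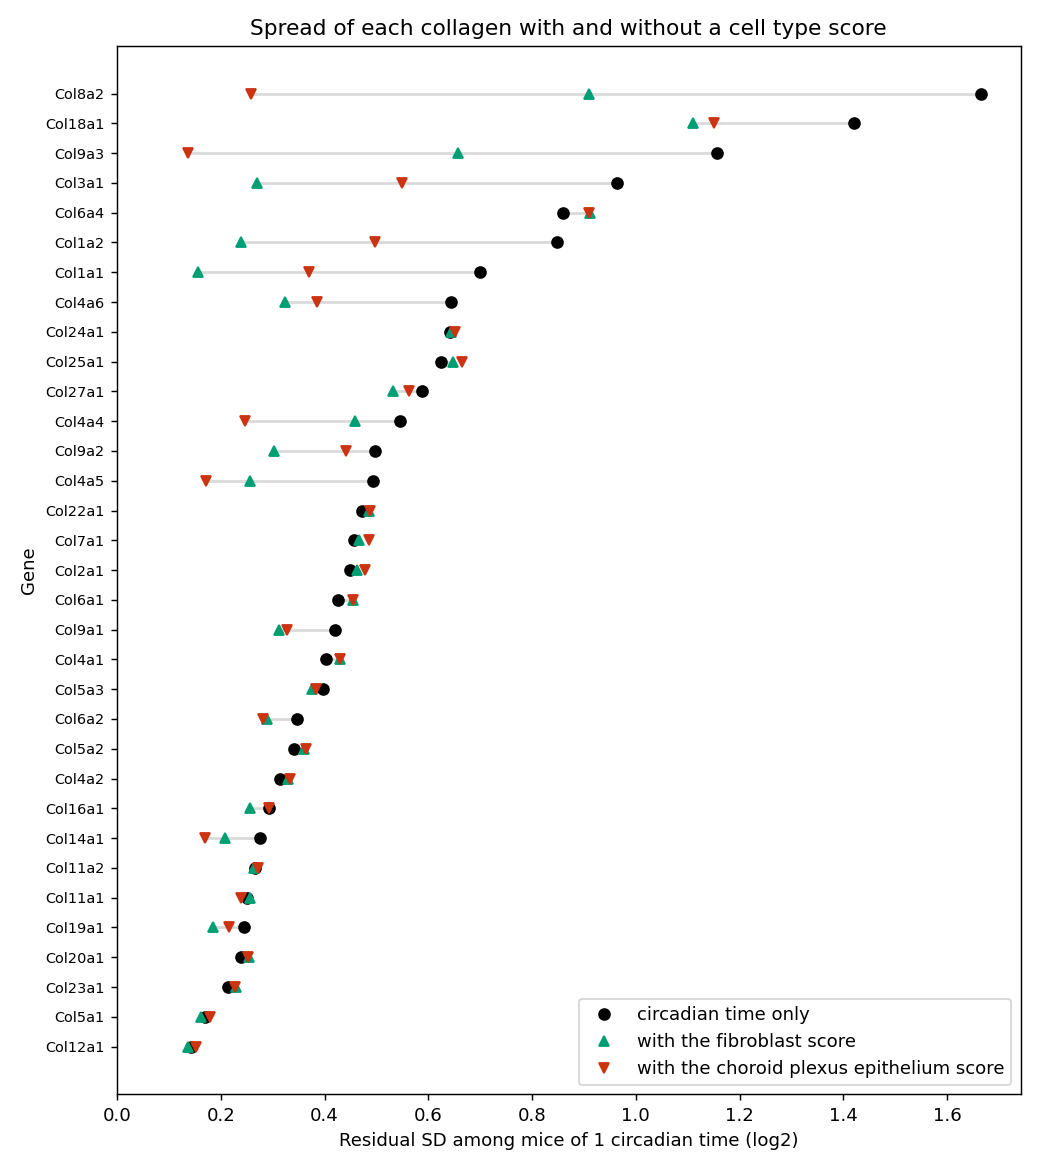
Residual SD among mice of 1 circadian time for each of the 33 collagens (horizontal axis, log2), in a fit with circadian time only (black circles), with the fibroblast score (green upward triangles) and with the choroid plexus epithelium score (red downward triangles). Col8a2 and Col9a3 drop furthest with the choroid plexus score, to 0.26 and 0.14, and Col1a1, Col1a2 and Col3a1 come down to 0.16, 0.24 and 0.27 with the fibroblast score. The mural and endothelial scores are not drawn.

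Over all 33 collagens the median SD within a time was 0.45, against 0.22 over all genes, and 12 collagens (36.36%) had an SD above 0.5 against 13.75% of all genes. The median range of the 4 means was 0.78 against 0.30.

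Col4a1 and Col4a2, the chains of the type IV network found in nearly every basement membrane, moved together. Their slopes on the fibroblast score were not called. Col4a1 was at 1.08, 0.78 and 0.57 at CT0, at 1.02, 0.85 and 0.74 at CT6, at 0.53, -0.89 and 0.22 at CT12, and at 0.56, 0.57 and 0.66 at CT18. Col4a2 was at 1.46, 1.25 and 1.18 at CT0, at 1.45, 1.38 and 1.28 at CT6, at 0.98, -0.13 and 0.75 at CT12, and at 1.08, 1.21 and 1.39 at CT18. Both were lowest in the CT12 mice, and CT12 mouse 11 was the lowest library for each. CT12 lay below CT0 by -0.86 ± 0.30 for Col4a1 and by -0.76 ± 0.24 for Col4a2 (difference ± SE; adjusted p by limma 0.389 and 0.364). Without CT12 mouse 11 the differences were -0.44 ± 0.16 and -0.43 ± 0.13 (adjusted p 0.487 and 0.382). The fibroblast slopes were -0.04 ± 0.23 and -0.10 ± 0.18, and the endothelial and mural slopes of neither gene had an unadjusted p under 0.05. Without CT12 mouse 11 the fibroblast slopes were 0.12 ± 0.10 and 0.02 ± 0.09, also not called. Slopes that were not called do not show that a relation is absent.

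The correlation of Col4a1 with Col4a2 was 0.98 over the 12 libraries and 0.91 without CT12 mouse 11. The next collagens, Col22a1 (0.92) and Col6a1 (0.91), were at 0.68 and 0.70 without that library. The most like other genes were Arhgap45 (0.98), Dcn (0.96) and P2ry12 (0.96), at 0.88, 0.88 and 0.80 without it. Dcn encodes a small matrix proteoglycan and is itself a marker in the fibroblast score, and P2ry12 encodes a receptor of microglia. Col4a1 and Col4a2 stand head to head, and their RefSeq starts on chromosome 8 (GRCm38.p6) are 21 bases apart on opposite strands. Their start windows are printed because the genes moved together and share 78 bases, which are in capitals in both. Col4a2 is at chr8:11312555-11312854 on the plus strand and Col4a1 at chr8:11312777-11313076 on the minus strand.
Col4a2: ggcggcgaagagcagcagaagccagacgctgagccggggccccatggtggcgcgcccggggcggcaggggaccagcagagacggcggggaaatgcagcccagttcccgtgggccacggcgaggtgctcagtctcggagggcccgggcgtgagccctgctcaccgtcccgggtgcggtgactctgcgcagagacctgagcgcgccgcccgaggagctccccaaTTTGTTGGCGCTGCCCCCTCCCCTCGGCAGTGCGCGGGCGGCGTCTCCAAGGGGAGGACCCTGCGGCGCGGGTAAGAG
Col4a1: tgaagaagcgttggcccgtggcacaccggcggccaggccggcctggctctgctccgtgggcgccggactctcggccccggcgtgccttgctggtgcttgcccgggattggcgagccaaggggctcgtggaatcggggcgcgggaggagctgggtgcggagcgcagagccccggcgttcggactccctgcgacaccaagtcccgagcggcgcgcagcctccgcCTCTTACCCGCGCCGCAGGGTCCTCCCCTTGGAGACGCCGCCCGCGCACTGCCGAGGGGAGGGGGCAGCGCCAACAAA
Col4a5 and Col4a6 are arranged in the same way with 1343 bases between their starts, and their levels correlated at 0.93 over the 12 libraries (0.92 without CT12 mouse 11). Within each pair the chains join in the same protein trimers.

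Type VI collagen links basement membranes to the surrounding matrix. Col6a1 was at 2.09, 1.74 and 1.34 at CT0, at 2.05, 2.16 and 1.88 at CT6, at 1.57, 0.32 and 1.67 at CT12, and at 1.43, 1.37 and 1.46 at CT18. CT6 was the highest time for Col6a1 and Col6a2, and all 3 CT18 mice lay below all 3 CT6 mice for each. The difference of CT18 from CT6 for Col6a2 was -0.76 ± 0.26, with an adjusted p by limma of 0.401. Col6a2 had a fibroblast slope of 0.36 ± 0.16 and Col6a1 one of -0.04 ± 0.24. Col6a4, well above background on 11 of 12 arrays, ran from -6.11 in CT12 mouse 11 to -2.24 in CT0 mouse 3 and was the most variable of the 3.

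The smallest F test p-values over time belonged to Col20a1 and Col23a1, whose fibroblast slopes lay near 0. Col20a1, a fibril-associated collagen, was at -1.65, -1.05 and -1.20 at CT0, at -1.50, -1.59 and -1.90 at CT6, at -2.08, -2.23 and -2.54 at CT12, and at -1.26, -1.54 and -1.62 at CT18. All 3 CT12 mice lay below the other 9, CT12 mouse 11 between the other two. CT12 was lower than CT0 by a difference of -0.98 ± 0.19, a 1.98-fold lower level, with an adjusted p by limma of 0.142. CT18 was 0.81 ± 0.19 higher than CT12 (adjusted p 0.0984). A second probe gave -1.05 and 0.99 for these comparisons. The slope on the fibroblast score was 0.03 ± 0.14. Over 26 other settings the CT12 minus CT0 difference was -1.16 to -0.64, with adjusted p of 0.104 to 0.844. The probe used lies at chr2:180750502-180750561 (mm9).

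Col23a1 encodes a membrane-spanning collagen that is also shed from the cell surface. It was at -0.72, -0.52 and -0.62 at CT0, at -0.33, -0.09 and -0.32 at CT6, at -0.62, -1.08 and -1.15 at CT12, and at -1.21, -0.71 and -1.15 at CT18. The CT6 mice were the highest 3 of the 12. CT18 differed from CT6 by -0.77 ± 0.17 (95% interval -1.15 to -0.39), 1.71-fold lower, with an adjusted p of 0.145 by limma. The difference was -0.88, -0.61 and -0.83 within slides 1, 2 and 3, and the 3 probes gave -0.77, -0.78 and -0.70. Over 26 other settings it was -0.93 to -0.64, with adjusted p of 0.0687 to 1. The fibroblast slope was 0.03 ± 0.13, and the probe used lies at chr11:51394105-51394164 (mm9).

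**Figure D5:**
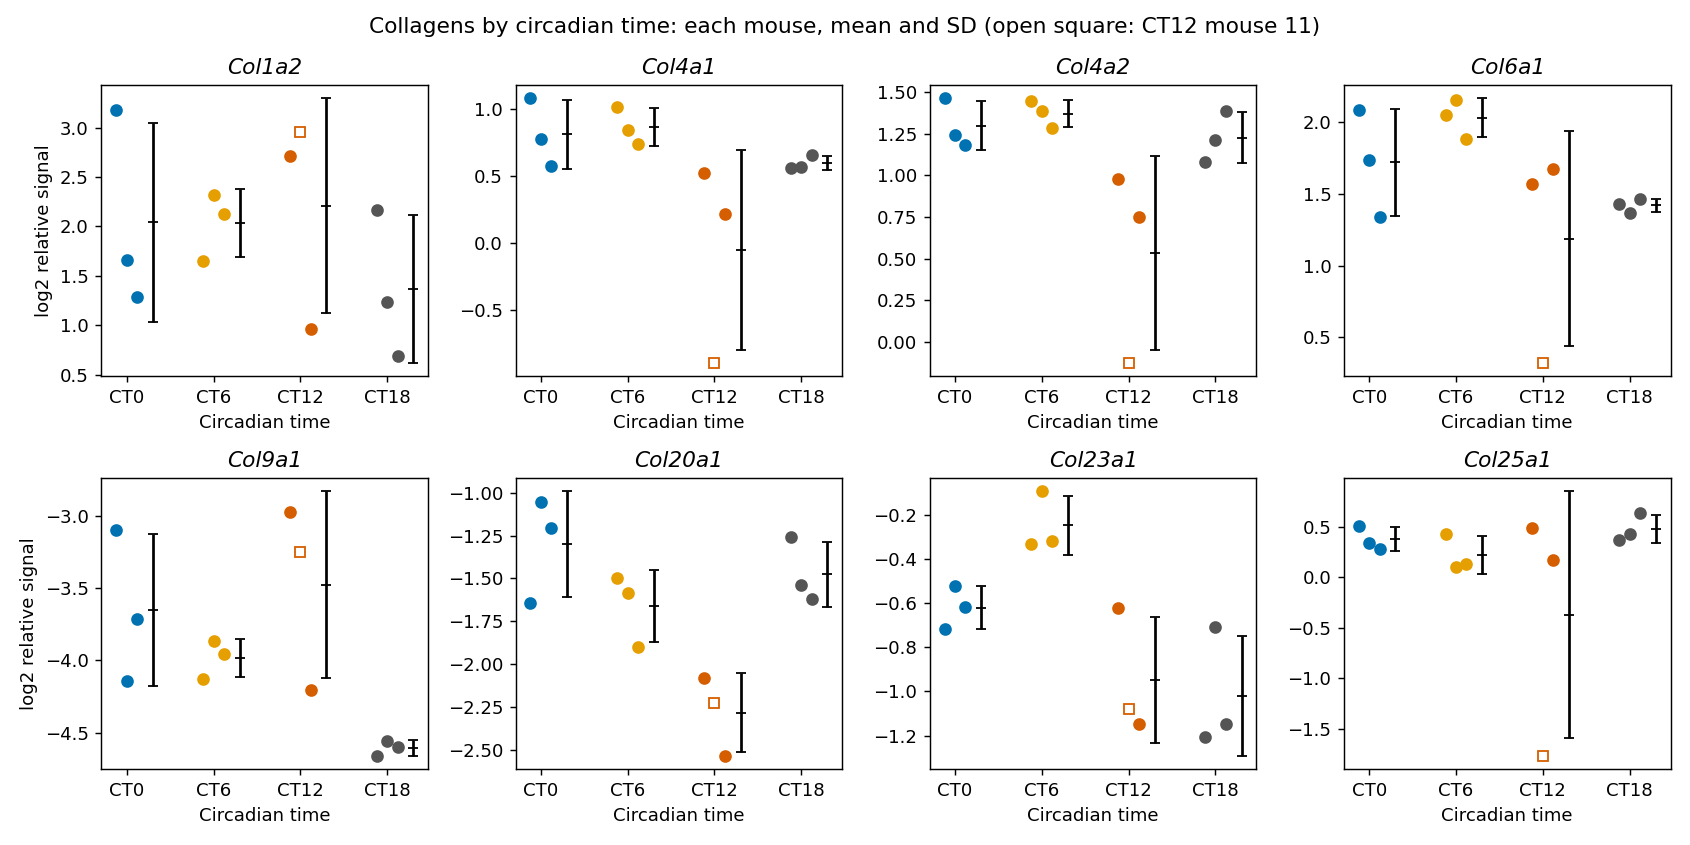
Levels of 8 collagens by circadian time (horizontal axes) as log2 signal relative to the array's 75th percentile (vertical axes), with 1 point per mouse and the mean and SD of the 3 mice in black beside them. CT12 mouse 11 is drawn as an open square, which is the lowest point for Col4a1, Col4a2, Col6a1 and Col25a1. The CT12 points of Col20a1 and the CT18 points of Col9a1 lie below all points of the other times.

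Col9a1, a chain of type IX collagen beside Col9a3, was at -3.10, -4.14 and -3.71 at CT0, at -4.13, -3.87 and -3.96 at CT6, at -2.98, -3.25 and -4.20 at CT12, and at -4.66, -4.55 and -4.60 at CT18. All CT18 mice lay below all others. The difference of CT18 from CT12 was -1.13 ± 0.31 (adjusted p by limma 0.149) and from CT0 -0.95 ± 0.31 (adjusted p 1). The first was -1.49 to -0.48 over 26 other settings, the smallest size coming with normexp background correction. Without CT12 mouse 12 limma called 2 of 33 collagens for CT18 against CT12 (6.06%), Col9a1 (adjusted p 0.0250) and Col16a1, against 5.23% of all genes, a share near the background. Col9a2 had its lowest mean at CT18 too, at -0.67 ± 0.51 against 0.38 ± 0.74 at CT12 (SD, n = 3 each), with a fibroblast slope of 0.67 ± 0.16 (adjusted p 0.161).

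Col22a1, a collagen of tissue junctions, was at -0.77, -0.92 and -0.97 at CT0, at -0.80, -0.33 and -0.66 at CT6, at -1.52, -2.94 and -1.42 at CT12, and at -1.52, -0.89 and -1.13 at CT18. CT12 was -1.36 ± 0.35 from CT6, and -0.87 ± 0.19 without CT12 mouse 11 (adjusted p by limma 0.349 and 0.244). Col19a1, a collagen made by hippocampal interneurons, had its lowest mean at CT12 (-4.13 ± 0.38, SD, n = 3) and its highest at CT6 (-3.34 ± 0.08), with an adjusted p of 0.318 for that difference by limma. Of the other fibril-associated genes, Col16a1 and Col14a1 had means lowest at CT18 and highest at CT6, but for each a probe elsewhere in the gene did not follow the one used (r = 0.08 and -0.01), while another Col16a1 probe did (r = 0.97). Col12a1 was the least variable collagen, with an SD within a time of 0.14 and levels from -3.28 to -2.71.

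Col25a1 encodes a neuronal membrane-spanning collagen whose shed part is found in amyloid plaques. It was between 0.10 and 0.64 in 11 libraries and at -1.77 in CT12 mouse 11, and its 3 other probes followed it with r of 0.90 to 0.97. Without that library its CT12 minus CT0 difference was -0.05 ± 0.15, against -0.75 with it. CT12 mouse 11 was above all other libraries for 9 collagens (27.3%, against 25.4% of all genes) and below all for 9 (27.3% against 30.3%). The shares lie near the background, so the collagens were not set apart from other genes in that library. The 9 above were Col2a1, Col5a1, Col5a3, Col7a1, Col9a2, Col16a1, Col18a1, Col24a1 and Col27a1. Col18a1 stood furthest out, at 2.79 against 0.18 in the next library. The 9 below were Col4a1, Col4a2, Col5a2, Col6a1, Col6a2, Col6a4, Col19a1, Col22a1 and Col25a1. Col7a1, the anchoring fibril of skin, was at 1.27 in CT12 mouse 11 and from -0.41 to 0.42 in the others.

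Of 28 listed genes for the synthesis and processing of collagen, 26 passed the background filter (not Lox and Loxl4). Among the 4 times the limma F test called 1 of the 26, against 0.166% of all genes. P4ha1, a catalytic subunit of the prolyl hydroxylase that stabilises the collagen helix, was at 0.59, 0.76 and 0.67 at CT0, at 0.22, 0.19 and 0.19 at CT6, at 0.21, -0.38 and 0.22 at CT12, and at 1.36, 1.26 and 1.32 at CT18. All CT18 mice lay above all others. P4ha1 was higher at CT18 than at CT6 by 1.11 ± 0.15 (adjusted p by limma 0.0242) and than at CT12 by 1.30 ± 0.15 (adjusted p 0.0164), and the F test gave an adjusted p of 0.0332. The F call held in 10 of 27 other settings, with adjusted p of 0.00511 to 0.428, and in 3 of 12 fits without 1 library. The call against CT6 held in 13 of 26 settings (adjusted p 0.00135 to 0.151) and in 4 of 12 fits without 1 library. The call against CT12 held in 21 of 26 (0.00402 to 0.491) and in 10 of 12, lost without CT18 mouse 14 or 16. At the same time 27 of 33 collagens had their CT18 mean below that of CT6. The next smallest F test p-values in the list belonged to Plod1 (adjusted p 0.350), a lysyl hydroxylase, and Adamts3 (0.409), a procollagen peptidase.

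Of 19 listed collagen receptors and turnover genes, 14 passed the filter (not Itga2, Mmp3, Mmp8, Mmp9 and Mmp13). The limma F test called 0 of the 14, with 3 at an unadjusted p under 0.05, against 0.166% and 10.6% of all genes. The 3 were Mmp14, a membrane collagenase (adjusted p 0.343), and the collagen-binding integrins Itga10 (0.370) and Itga11 (0.372). All 17 listed basement membrane partners of collagen passed the filter. The F test called 0 of the 17, with 2 at an unadjusted p under 0.05, against the same shares of all genes. The smallest adjusted p were those of the laminin chains Lama4 (0.415), Lamb1 (0.463) and Lama2 (0.530).

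On the fibroblast score the same lists had 2 of 26, 3 of 14 and 1 of 17 genes called by limma, all with positive slopes, against 0.565% of all genes. Pcolce, which speeds procollagen cleavage, had a slope of 1.78 ± 0.20 (adjusted p 0.00638), and Adamts2, the procollagen peptidase of types I and III, 0.78 ± 0.13 (0.0346). The collagen receptor Ddr2 had a slope of 0.77 ± 0.09 (0.00634), the collagen uptake receptor Mrc2 0.63 ± 0.09 (0.0189), and the protease inhibitor Timp3 0.57 ± 0.09 (0.0363). Hspg2, the basement membrane proteoglycan perlecan, had 0.69 ± 0.12 (0.0468). In fits without 1 library the call held in 10 of 12 for Pcolce and Ddr2, 8 of 12 for Mrc2, 2 of 12 for Adamts2 and 1 of 12 for Timp3 and Hspg2. With the choroid plexus score as a further covariate, none of the 6 was called, in a fit that called 0% of all genes. With slide as a block the calls of Pcolce, Adamts2, Mrc2, Timp3 and Hspg2 were lost and that of Ddr2 held. That fit called 0.0415% of all genes.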

How the data were processed

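Cy3-labelled total RNA of each mouse was read on its own array. The deposited scanner files hold intensity values per spot, made per the file headers with Agilent Feature Extraction, whose processed signal is background-subtracted and not scaled between arrays. Per the file headers, probe coordinates are on mm9, and further deposited columns are other values, namely flags of 0 or 1 per spot, and the local background intensity. The authors' deposited value table holds log2 values whose making is not given in the sources used here, and it served as an alternative.

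Levels were computed here as log2 of that signal after subtraction of its 75th percentile on the same array. Outlier spots were left out, spots of a probe averaged, and the brightest passing probe stood for a gene, which left 33955 of 55681 probes and 24080 genes. Levels of different probes were not compared. Gene names were updated through a RefSeq table (GRCm38.p6), with 26515 probes matched by accession, 2602 by symbol, 492 by synonym and 26006 keeping the array's name. The arrays lay on 3 slides with 1 array per time, and each time had 1 array position, so position and time cannot be told apart. CT0 mouse 1 had a local background of 100 against 25 to 37 elsewhere. Its array was also the only one whose file header marked the extraction for evaluation and not as in range.

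R 4.3.3 with limma 3.58.1 fitted a mean per time, a 24 h cosine and sine, or time plus a marker score, with a call below 0.05 after Benjamini-Hochberg adjustment over the 24080 genes. Slopes are per unit of score. The fits were tested on simulated data. The labels name 3 mice per time and say no more of their origin. The members, marker lists and tests were chosen with earlier results of these data known, and lists were written from general knowledge. Named were every collagen, genes of 3 pathway lists called in the F test or by the fibroblast slope or with the 3 smallest F test p-values, the 2 brightest markers per cell type (1 is not reported here), Ciart and Nr1d1, and the genes most like Col1a2 and Col4a1. Alternatives were median centring, quantile normalization, background correction by normexp (offset 50), the authors' table, another or no filter, a mean over probes, slide as a block, limma with trend and robust variance, score covariates, only the 6 arrays compared, and leaving out each library in turn. Fits without the 5 libraries high in the choroid plexus score, with a further score as covariate, or without CT12 mouse 11 and with the fibroblast score were added after seeing the data. Exon or UTR annotation on mm9 was not used here.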

Additional observations from a re-analysis of the deposited data

How the results depend on the processing

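No collagen was called in the 8 time tests under the planned and added alternatives, except CT18 against CT12 without CT12 mouse 12, where 2 of 33 were called (Col9a1 and Col16a1; 6.06%, against 5.23% of all genes). Leaving out each library in turn gave 0 to 2 collagens in that test, 0 to 0 in the other 7 time tests, 3 to 6 of 33 with the fibroblast score, 3 to 7 with the endothelial score and 0 to 2 with the mural score. The 6 fibroblast calls came without CT6 mouse 6 (0.702% of all genes called) and 5 without CT12 mouse 11 (0.619%). The 3 endothelial calls came without CT0 mouse 1 (0.183%) and without CT12 mouse 12 (0.116%). The 2 mural calls came without CT12 mouse 11 (0.253%). Fibroblast calls, 3 in the fit reported (9.09%, against 0.565% of all genes), were 7 with median centring (21.2% against 1.08%). They were 0 with slide as a block (0.0415% of all genes) and 0 with the choroid plexus score as a further covariate (0%). Endothelial calls, 5 in the fit reported (15.2%, against 0.905% of all genes), were 2 with normexp background correction (6.06% against 0.561%). With median centring they were 6 of 33, against 2325 of the 24080 genes. These were Col1a1, Col1a2, Col4a6, Col5a1, Col12a1 and Col16a1, so that Col3a1 and Col4a5 were lost. Endothelial calls were 0 with slide as a block (0.0166% of all genes) and with the choroid plexus (0.00415%) or fibroblast score (0%) as a further covariate. The cause of these changes was not tested. The fits without the 5 libraries high in the choroid plexus score have 7 samples, so score calls are not given for them. The collagen median changed sign with median centring for CT12 against CT0 (-0.12 to 0.09), CT6 against CT0 (-0.01 to 0.16) and CT12 against CT6 (-0.03 to 0.01), while the median of all genes moved to 0.19, 0.18 and 0.02. No slope on the choroid plexus score was tested, because that score falls into separate clusters. It was used only as a covariate and for the SD within a time. No analysis paired by mouse number was possible because these numbers differ between all circadian times. Slides, which hold 1 array per time, gave the blocked fits above. Levels not well above background limit Col24a1 at CT0 and Col6a4 at CT12.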
